A study of Mus musculus with 4 samples.

Results

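The human monocytes of 4 single-cell libraries from humanised mice were examined. They were picked by their transcripts. A barcode counted as a monocyte when over 50% of its unique molecular identifiers (UMIs, 1 per captured RNA molecule) lay on human genes, at least 500 human genes were detected, no UMI of CD3D, CD3E, CD3G or MS4A1 was present, and at least 3 of the 6 genes FCN1, VCAN, LYZ, MNDA, CD36 and IGSF6 had a UMI. The rule found 210 monocytes among 17842 human barcodes with at least 500 human genes. There were 122 of 6592 in naïve blood and 70 of 4897 in sham blood. After spinal cord injury (SCI) there were 10 of 6226 in blood and 8 of 127 in the injured cord.

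The hosts were huNSG-SGM3 mice, NOD animals with the alleles Prkdcscid and IL2rgtm1Wjl, which lack their own lymphocytes, and the transgene Tg(CMV-IL3,CSF2,KITLG)1Eav, which makes human IL-3, GM-CSF and stem cell factor from a CMV promoter. They had been engrafted with CD34+ stem cells from human cord blood. All groups carried these alleles and transgenes, all were labelled 15 weeks of age, and the cells had been sorted for human CD45. Naïve mice were male and had no surgery, sham mice were male and were taken 7 days after a laminectomy at thoracic level 9, and both SCI libraries came from male and female mice 7 days after an injury at the same level. Each group was a single library of cells from pooled animals, so no difference between groups could be tested and no p-value is given. Intervals are exact 95% intervals for counting error only, and differences between animals, surgery and library handling cannot be told apart.

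Monocytes are phagocytes that leave the bone marrow, circulate briefly and enter injured tissue, where they can become macrophages or dendritic cells. Classical monocytes carry CD14 and S100 alarmins, whereas non-classical monocytes carry the Fc receptor CD16, encoded by FCGR3A. GM-CSF, IL-3 and M-CSF (the ligand of CSF1R) control their survival and differentiation, and the immediate early genes are transcribed within minutes of a stimulus, before new protein is made.

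Monocytes were 1.85% (1.54 to 2.21) of human cells in naïve blood and 1.43% (1.12 to 1.80) in sham blood. In SCI blood they were 0.161% (0.0770 to 0.295), and in the cord 6.30% (2.76 to 12). The SCI blood interval lay below those of both other blood samples, and the cord interval above all 3. Only the cord cells had passed a magnetic column for human CD45 before sorting. Few cells sat near the threshold of the rule. Of the barcodes without CD3 or MS4A1 transcripts, 1, 1, 2 and 0 had exactly 2 of the 6 genes (naïve, sham, SCI blood and cord in that order), and 4, 4, 0 and 0 had exactly 3, whereas 77, 43, 8 and 6 had all 6. A further 38, 34, 8 and 2 barcodes carried at least 3 of the genes together with a CD3 or MS4A1 transcript and were left out by the rule.

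Depth differed between the libraries. In the same order, the median monocyte had 5850, 8866, 9120 and 20830 human UMIs, and the median T cell 3581, 5151, 4629 and 8034. Summed over monocytes, without ribosomal protein and mitochondrial genes, this gave 663249, 556858, 80658 and 165446 UMIs. Of all human UMIs of the monocytes, the deepest cell held 3.24% and 4.88% in naïve and sham blood but 15.0% in SCI blood and 23.2% in the cord. The pairs of libraries shared at most 16 barcode sequences, and none was a monocyte in both. Expression is given as CPM, the summed counts scaled to an equal total for each library.

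The selected cells carried monocyte transcripts beyond those in the rule. All 28 other monocyte genes on the marker list were detected in each library, and together they reached 75999 CPM in naïve and 80222 CPM in sham monocytes, against 365 CPM in naïve T cells. S100A9, an alarmin subunit and the most abundant of those named here, was at 36597 CPM in naïve, 36982 in sham, 34504 in SCI blood and 29798 in cord monocytes. Its partner S100A8 was at 15977, 18256, 14072 and 17559 CPM. MRC1, the mannose receptor usually read as a macrophage marker, had a UMI in 86.9% of naïve and 90% of sham monocytes, at 1289 and 1298 CPM, whereas naïve T cells had 0.455 CPM. CD163, another macrophage scavenger receptor, had a UMI in 7.38% and 5.71% of monocytes.

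CD14, the lipopolysaccharide co-receptor, had a UMI in 50% of naïve monocytes (40.8 to 59.2) and 41.4% of sham monocytes (29.8 to 53.8). FCGR3A had one in 18.03% (11.7 to 26.02) and 15.7% (8.11 to 26.4), and neither gene was seen in 37.7% and 45.7% of cells. At these depths the shares of the 2 libraries could not be separated. Receptors for the human transgene products were present: IL3RA, the IL-3 receptor alpha chain, had a UMI in 75.4% of naïve and 80.0% of sham monocytes, CSF2RA, its GM-CSF counterpart, in 61.5% and 71.4%, and the shared beta chain CSF2RB in 59.0% and 75.7%. KIT, the receptor for stem cell factor, had 0 UMIs in all 4 libraries. Over T cells, the genes with the greatest excess included S100A12, FPR1 (formyl peptide receptor), CDA, TFEC, RNASE2, IL1B, LILRB2, CLEC10A and SIGLEC1, besides the rule's own genes.

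**Figure D1:**
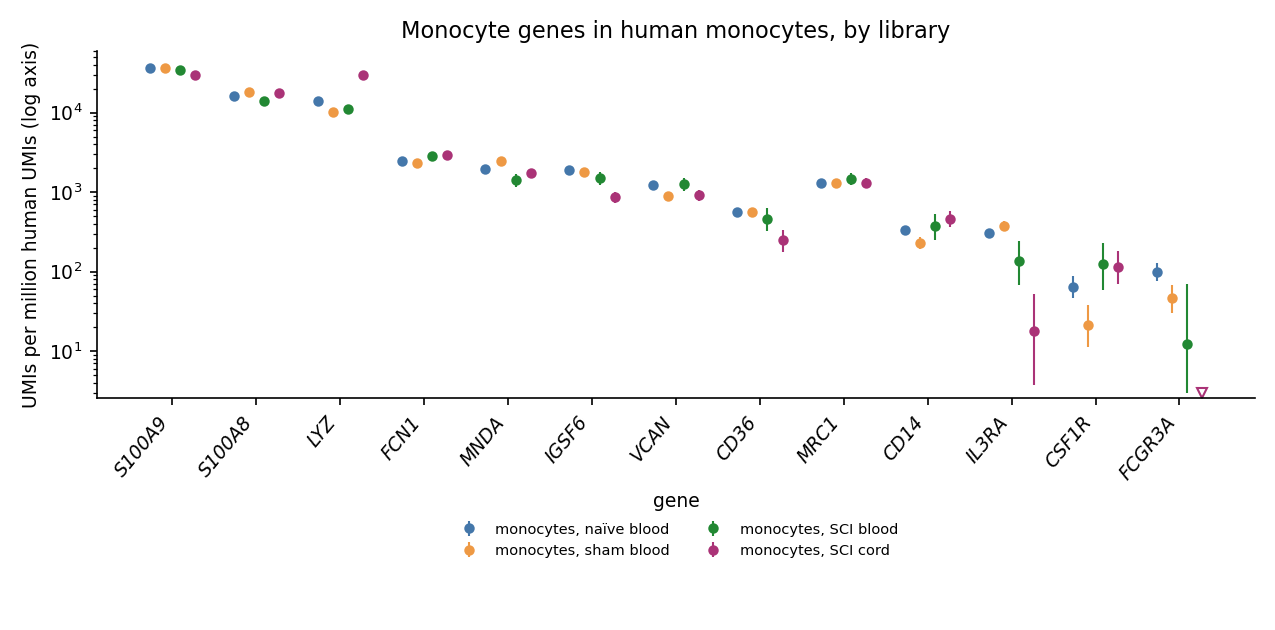
Level of monocyte genes (horizontal axis) in the summed monocytes of each library, in CPM on a log axis, with exact 95% Poisson intervals. The open triangle marks a gene with no UMI. S100A9 lay between 29798 and 36982 in every library, LYZ was highest in the cord at 29629, and IL3RA was at 303 and 375 in naïve and sham blood and at 18.1 in the cord.

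Transcripts of other lineages differed in amount. The 6 erythroid markers were at 0 in all 4 libraries, the 6 platelet or megakaryocyte markers summed to at most 3.59 CPM, and the 8 T cell markers to 33.2 and 28.7 CPM in naïve and sham monocytes against 7131 CPM in naïve T cells, with 496 CPM in the cord from 82 UMIs. B cell markers summed to 118 and 140 CPM, near the 128 and 111 CPM of T cells. In naïve and sham monocytes the neutrophil markers summed to 323 and 505 CPM, the eosinophil markers to 136 and 1104, the plasma cell markers to 398 and 153, and the granule genes of early myeloid cells to 400 and 62.9. The 10 basophil or mast cell markers summed to 12.1 CPM in naïve and 0 in sham monocytes. A few single cells carried at least 10 UMIs of a set of genes of another lineage. They are called led by these genes below, although the genes held only 0.0720% to 9.30% of each cell's UMIs. A sham cell of 30955 UMIs carried 56 UMIs of CLEC9A, XCR1, CADM1 and CLNK, genes of cross-presenting dendritic cells. A sham cell of 5503 UMIs carried 512 UMIs of the eosinophil genes EPX, CLC, PRG2 and PRG3. A naïve cell carried 192 UMIs of the promyelocyte granule genes MPO, ELANE and PRTN3, another 112 of the plasma cell genes JCHAIN and MZB1, and a further one, of 7377 UMIs, 21 of the eosinophil genes and 17 of CD1C, CD1E and FCER1A together with 3 mast cell genes. In the cord, 2 of the 8 cells had 34 and 43 UMIs of CD1C, CD1E and FCER1A. These 7 cells met the rule.

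Clustering of the 210 cells gave 4 groups, which are described and not tested because the same genes defined them. The group of 87 cells (50 naïve, 28 sham, 6 SCI blood, 3 cord) was led by CRIP2, EMP1, RRAS and LMNA, and 51.7% of its cells had the folate receptor gene FOLR2. The group of 64 cells (41, 17, 2 and 4) was led by RNASE2, DYSF, S100A12 and RETN. There S100A9 reached 82080 CPM, VCAN, a matrix proteoglycan, 2325 CPM, and CD14 was detected in 79.7% of cells. The group of 42 cells (24, 15, 2 and 1) was led by FABP5, CD83, FCGR3A and HLA-DQA1, with HLA-DPB1 at 6246 CPM and the lipid-presenting molecule CD1C in 45.2% of cells.

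The smallest group held 17 cells, 7 naïve and 10 sham. It was led by LTF (lactoferrin), CD24, CMTM2 and CEACAM1. The neutrophil markers summed to 2972 CPM there and to 281 CPM in the other members, whereas LYZ stood at 1537 CPM. The cells had a median of 3726 UMIs, 0.420 of the median member of their libraries. For these neutrophil-like cells the data went against the name monocyte, although they met the rule. Without them the shares were 1.74% of naïve and 1.23% of sham human cells.

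Naïve and sham monocytes were compared over 3900 genes with at least 50 UMIs in both libraries together. Most genes were at like levels: the median log2 ratio of sham over naïve was -0.04, with 10% of genes below -0.48 and 10% above 0.37. At least 2-fold higher in sham were 19 genes (0.487% of those tested), and at least 2-fold lower were 37 (0.949%). Immunoglobulin genes were not excluded from this comparison. They held 0.505% of the summed UMIs of naïve monocytes and 0.00323% of those of sham monocytes. How many of the 37 were immunoglobulin genes was not counted. In T cells of the same libraries 2 of 3700 genes were higher (0.0541%) and 17 lower (0.459%). No gene was called higher in both cell types, and 6 were lower in both. The monocyte sums rest on far fewer cells. For 14 of the 56 called genes, 1 cell held over 50% of the gene's UMIs in naïve or in sham monocytes.

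**Figure D2:**
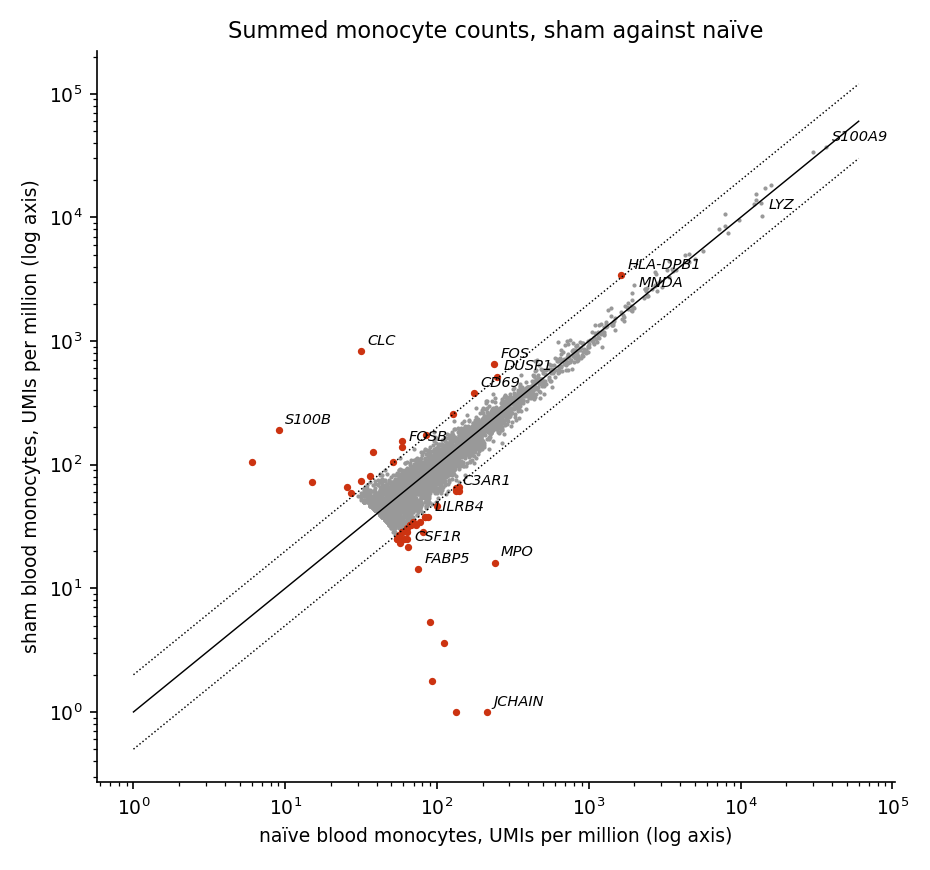
Each of the tested genes by its CPM in naïve (horizontal) and sham (vertical) monocytes, both on log axes; values under 1 are drawn at 1. The solid line marks equality, dotted lines a 2-fold difference and red points the genes past it, such as FOS (238 and 648) above and CSF1R (64.8 and 21.5) below.

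The 6 genes of the rule all differed by less than 2-fold, although 1 interval lay wholly above 0 and 2 wholly below. FCN1 (ficolin, an opsonin) was at 2433 CPM in naïve and 2354 in sham monocytes, a log2 difference of -0.05 (-0.15 to 0.06). LYZ, lysozyme, was at 13883 and 10329 CPM and VCAN at 1220 and 903, each -0.43 on the log2 scale, while MNDA, a nuclear sensor, was at 1927 and 2442 CPM (0.34). These genes chose the cells, so their values are descriptive. LYZ was at 12696 CPM in naïve and 6160 in sham cells of the FOLR2 group (-1.04) and at 2778 and 1151 CPM in the neutrophil-like cells, from 39 and 52 UMIs. In the S100A12 and CD83 groups it differed by 0.00 and -0.05. Per cell and with no scaling for depth, all genes shifted towards sham with a median of 0.51, and LYZ, VCAN and CD14 were then higher in sham.

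Immediate early genes were higher in sham than in naïve monocytes. Of the 15 that were tested, 13 had a log2 ratio above 0 (44.1% over all genes), 9 had an interval wholly above 0 (5.05% over all genes), and none had one wholly below (6.31% over all genes). FOS, a subunit of the AP-1 transcription factor, was at 238 CPM in naïve, 648 in sham, 1823 in SCI blood and 2907 in cord monocytes. The difference between sham and naïve was 1.44 on the log2 scale (1.17 to 1.72), and a UMI was found in 52.5% of naïve and 87.1% of sham cells, or 24.6% and 41.4% when every cell was thinned to 1000 UMIs. FOS was higher in sham within each of the 3 larger groups of cells, by 1.23, 1.87 and 1.69, whereas the neutrophil-like cells had 499 CPM in naïve and 398 in sham, from 7 and 18 UMIs. DUSP1 (1.17, 1.02 and 0.74) and JUNB (0.50, 0.75 and 0.59) were also higher in all 3. Not every listed gene followed. In the S100A12 group JUND (-0.97, -1.44 to -0.53) and KLF2 (-0.95, -1.39 to -0.55) were lower in sham. JUN differed by 1.24 in that group and by -0.83 in the CD83 group. No single cell held over 8.86% of the FOS UMIs of naïve or of sham monocytes. Without the 5 naïve and sham cells led by another lineage's genes, 13 of the 15 genes were still above 0.

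FOSB, its close relative, followed at 58.8 CPM in naïve, 138 in sham, 335 in SCI blood and 786 in cord monocytes (sham over naïve 1.22, 0.66 to 1.83). DUSP1, a phosphatase that turns off MAP kinases, stood at 249, 515, 942 and 1064 CPM (1.05, 0.77 to 1.34). CD69, an early activation antigen outside this list, was at 176, 381, 223 and 314 CPM (1.11, 0.78 to 1.45), and its UMIs were found in 42.6% of naïve and 84.3% of sham cells. All 3 differed in the direction of FOS. JUNB (0.63), ZFP36, which degrades cytokine mRNA (0.59), IER2 (0.52) and the stress-response gene PPP1R15A (0.94) were also higher, whereas JUN was at 155 and 162 CPM (0.06, -0.37 to 0.48).

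T cells of the same libraries went the same way. FOS was at 33.3 CPM in naïve and 57.4 in sham T cells (0.79), and the list had a median log2 ratio of 0.29 in T cells and 0.29 in monocytes. Over all genes the medians were -0.01 and -0.04. The mitochondrial share of UMIs was 6.70% in naïve and 5.59% in sham monocytes, and its part in these values was not tested.

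**Figure D3:**
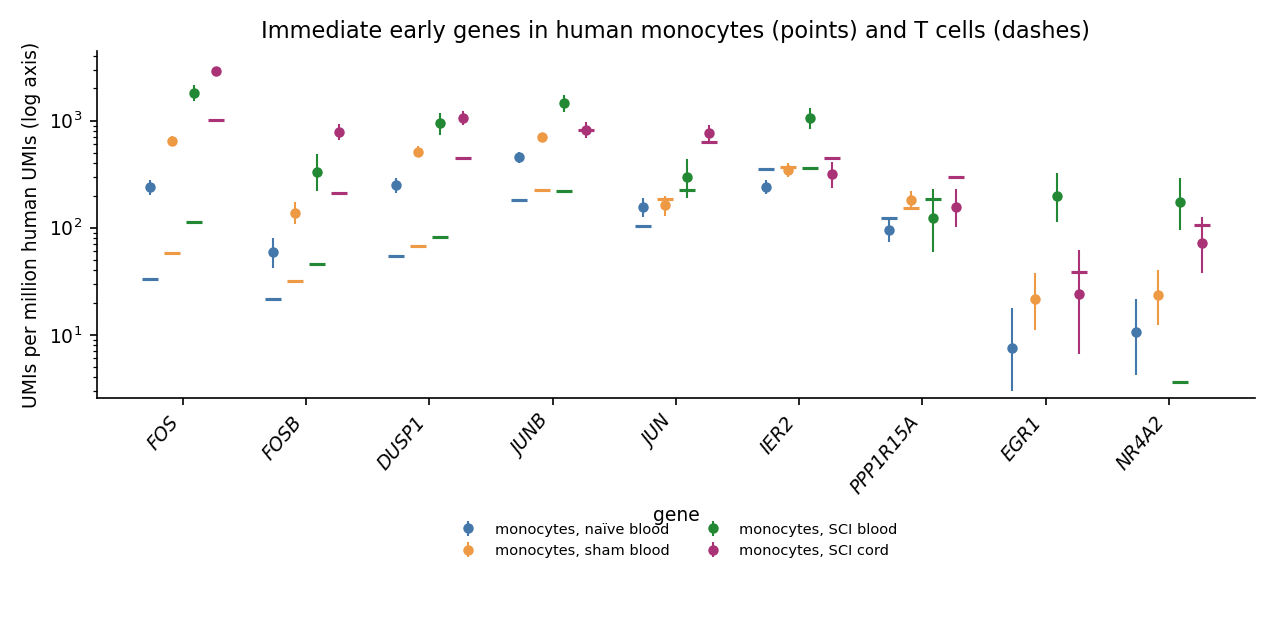
Immediate early genes (horizontal axis) in CPM on a log axis, with exact 95% Poisson intervals for monocytes (points) and the level in T cells of the same library (dashes; those under 3 are not drawn). FOS in monocytes runs from 238 in naïve through 648 in sham and 1823 in SCI blood to 2907 in the cord.

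The MHC class II genes, which present antigen to helper T cells, were higher in sham, by an amount that depended on a few cells. HLA-DRA was at 7854 CPM in naïve and 10565 in sham monocytes, HLA-DPB1 at 1634 and 3399, and CD74, the invariant chain, at 2764 and 3469. Over the list, 11 of 12 genes were above 0 (44.1% over all genes) with a median log2 ratio of 0.39, against 0.09 in T cells. The sham cell with CLEC9A transcripts alone held 49.5% of the HLA-DPB1 UMIs of its library, 22.1% of CD74 and 15.9% of HLA-DRA. Without the 5 cells of the 2 libraries that were led by another lineage's genes, HLA-DPB1 went from a ratio of 1.06 to 0.09 (-0.04 to 0.22), and the median of the list from 0.39 to 0.11. Only HLA-DRA (0.20, 0.14 to 0.25) and HLA-DRB1 (0.25, 0.15 to 0.34) kept an interval above 0. Within the FOLR2 group, which did not hold the CLEC9A cell, HLA-DRA differed by 0.34 (0.26 to 0.43), HLA-DRB1 by 0.52 (0.38 to 0.66), HLA-DPB1 by 0.32 (0.12 to 0.53) and CD74 by 0.22 (0.07 to 0.37). In the S100A12 group the intervals of these 4 genes all held 0.

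**Figure D4:**
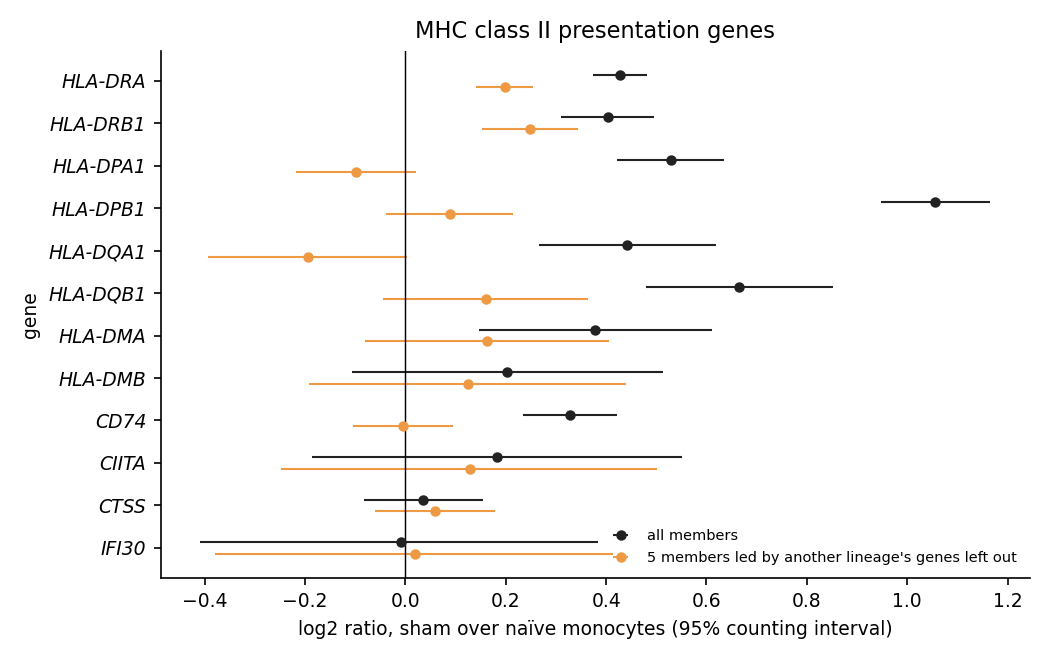
Log2 ratio of sham over naïve monocytes for 12 genes of MHC class II presentation, with 95% counting intervals, over all members (black) and without the 5 cells led by genes of another lineage (orange). HLA-DPB1 is at 1.06 with and 0.09 without them and CD74 at 0.33 and 0.00.

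Several of the widest differences lay in single cells. CLC, the Charcot-Leyden crystal protein of eosinophils, was at 31.7 CPM in naïve and 828 in sham, with all UMIs of each library in 1 cell. S100B was at 9.05 and 190 CPM with 95.3% of the sham UMIs in 1 cell, and for IRF8, a transcription factor of dendritic cells and monocytes, that share was 65.6%. Without its top cell in each library IRF8 went from 1.02 to -0.17. MPO was at 240 CPM in naïve and 16.2 in sham, with 98.1% of the naïve UMIs in 1 cell. JCHAIN, of the antibody joining chain, had 141 UMIs in naïve, 75.9% of them in 1 cell, and none in sham monocytes; in T cells it was at 397 and 1.69 CPM. Without the 5 cells 13 of the 19 genes remained at least 2-fold higher and 27 of the 37 at least 2-fold lower in sham. LTF (15.1 and 71.8 CPM), CMTM2 (31.7 and 73.6), CD24 and ANXA3 were also among the 19, chosen for mention after their values were seen, and LTF, CMTM2 and CD24 led the neutrophil-like group.

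Receptors that were lower in sham were spread over more cells, although FCGR3A differed mainly in the CD83 group. CSF1R, the M-CSF receptor, was at 64.8 CPM in naïve and 21.5 in sham monocytes, or 43 and 12 UMIs (-1.55, -2.65 to -0.64), and at 124 and 115 CPM in SCI blood and cord. C3AR1, the receptor for complement C3a, was at 134 and 61.1 CPM (-1.12, -1.75 to -0.55), although its UMIs were found in 37.7% and 34.3% of cells, and the difference was -0.45 when cells were thinned to 1000 UMIs. FCGR3A was at 99.5 and 46.7 CPM (-1.08), with 28.8% of the naïve UMIs in 1 cell. It had 51 and 13 UMIs in the CD83 group (-1.90), 12 and 9 in the FOLR2 group (-0.03) and 2 and 1 in the S100A12 group. LILRB4, an inhibitory receptor, was at 87.4 and 37.7 CPM (-1.19). Outside the receptors, RHOC, a GTPase of the cytoskeleton, was at 140 and 61.1 CPM (-1.19), and NASP, a histone chaperone, at 139 and 66.4 (-1.05). FABP5, a fatty acid carrier, was at 75.4 and 14.4 CPM (-2.32), with 56.0% of the naïve UMIs in 1 cell. CD14 was 332 and 230 CPM (-0.53, -0.85 to -0.21). IL3RA differed by 0.31 and CSF2RA by -0.09.

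Of the 30 functional lists, 14 had a median above 0, and the shares below are to be read against the 44.1% of all genes above 0. MHC class I presentation had 11 of 15 genes above 0 (median 0.19, T cells 0.00), with the peptide transporter TAP1 at 181 CPM in naïve and 289 in sham (0.67) and the immunoproteasome subunit PSMB9 at 213 and 330 (0.64). All 7 S100 alarmins that were tested were above 0 (median 0.15), but 3 of 7 were (median -0.01) without the neutrophil-like cells. The type I interferon response had 20 of 34 above 0 (median 0.09, T cells 0.18) with MX1, an antiviral GTPase, at 686 and 648 CPM. Lysosome and protease genes were above 0 in 9 of 26 (median -0.14), and coagulation and matrix genes in 0 of 7 (median -0.22). The cell cycle list had 1 of 3 above 0 and the lowest median of these lists, -0.49. The inflammasome, NF-kB, pattern recognition, GM-CSF and STAT5 target and oxidative phosphorylation lists had medians of 0.01, -0.01, -0.02, 0.01 and 0.05. IL1B, the main secreted inflammasome product, was at 172 CPM in naïve and 163 in sham, and TLR4, the lipopolysaccharide receptor, at 130 and 128.

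The 10 monocytes of SCI blood are described without a call on any single gene. Counts of genes past 2-fold were not planned for the SCI libraries, which hold few monocytes, and are descriptive. Immediate early genes were above both naïve and sham in 13 of 15 (39.0% over all genes), and 4 of 15 were at least 2-fold above both (1.64% over all genes). EGR1, a transcription factor of this class, reached 198 CPM, from 16 UMIs in 40% of the cells, against 7.54 CPM in naïve and 21.5 in sham monocytes. All 10 cells had a UMI of FOS. Without the deepest cell FOS was at 2074 CPM, 13 of 15 genes were above both (38.6% over all genes) and 6 were at least 2-fold above (1.92%). Over all 23 listed genes, SCI blood T cells summed to 6334 CPM against 5779 in naïve and 6408 in sham T cells. Monocytes summed to 12770 against 6215 and 7936 CPM. Single listed genes did rise in T cells. With the blood libraries ordered as naïve, sham and SCI, T cells held FOS at 33.3, 57.4 and 114 CPM. FOSB was at 21.5, 31.6 and 45.9 there, DUSP1 at 54.4, 66.8 and 82.4, and PPP1R15A at 125, 152 and 185. CD69, outside the list, was at 51.2, 63.9 and 62.0. Higher FOS, FOSB and DUSP1 after SCI were thus not confined to monocytes.

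Type I interferon response genes lay the other way. Of 34, 31 were below both naïve and sham monocytes (44.9% over all genes), and 9 were at least 2-fold below both (9.23%). MX1 was at 198 CPM in SCI blood, IFIT3, an interferon-induced translation inhibitor, at 37.2 against 193 and 190, and LY6E, an interferon-induced surface protein, at 260 against 706 and 657. The 37 listed genes summed to 6422 CPM in SCI blood monocytes, 9779 in naïve and 10347 in sham, and to 6558, 9139 and 10194 CPM in T cells of these libraries, so the monocytes did not stand apart. Without the deepest cell 29 of 34 were below both (46.3% over all genes). Heat shock genes were above both in 10 of 11 and the unfolded protein response in 13 of 16 (39.0% over all genes), or 10 and 11 without the deepest cell (38.6%). F13A1, the A chain of coagulation factor XIII, was at 211 CPM, against 37.7 in naïve and 41.3 in sham monocytes.

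The 8 cord monocytes differed from blood in depth, tissue, dissociation with papain and enrichment of human CD45 cells on a magnetic column at once. From naïve and sham blood they differed also in injury and in the sexes of the mice. Their values are therefore given side by side. LYZ was at 29629 CPM, above the 10329 to 13883 CPM of the blood libraries. HLA-DRA was at 14416 CPM, against 9497 in SCI blood, and CST3, cystatin C, at 9387 against 3781. Class II genes were above both naïve and sham in 9 of 12 (37.6% over all genes) and at least 2-fold above both in 4 (3.1%). Without the deepest cell these were 10 (35.6%) and 3 (2.15%). Without the 2 cells led by CD1C, CD1E and FCER1A they were 7 and 0, and the share over all genes was not computed for that set. CD1C was at 387 CPM, but at 47.5 CPM in the other 6 cells, from 5 UMIs in 1 of them. In those 6 cells LYZ was at 41334 CPM, HLA-DRA at 11079 and CST3 at 6604. Without thinning to an equal depth, the granule protease genes AZU1 and CTSG were found in 62.5% and 75% of cord cells, against 7.38% and 18.03% of naïve ones. IL3RA was at 18.1 CPM, from 3 UMIs. Type I interferon genes were below both in 28 of 34 (47.1% over all genes), or 27 without the deepest cell (48.8%), and at least 2-fold below both in 19 (10.3%). The T cells of the cord summed to 5770 CPM over this list against 5730 in its monocytes.

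Mouse transcripts took a larger share in naïve monocytes than in T cells. The median share of mouse UMIs was 0.474% for naïve, 0.3004% for sham, 0.238% for SCI blood and 0.591% for cord monocytes, against 0.209%, 0.254%, 0.210% and 0.560% in T cells. In naïve monocytes 9 mouse platelet genes, a list chosen after the values were seen, made up part of this excess. Pf4 (platelet factor 4) had a UMI in 33.6% of naïve but 7.14% of sham monocytes, against 5.88% and 4.80% of T cells. Gng11 was in 41.0% and 4.29% of monocytes, and Ppbp, another platelet chemokine, in 22.95% and 0%, the latter with an exact upper bound of 5.13% for 70 cells. At least 3 UMIs of these genes were present in 36.1% of naïve monocytes (27.6 to 45.3) and 4.29% of sham monocytes (0.893 to 12.02). In T cells the shares were 3.47% and 3.39%, in B cells 3.095% and 3.47%, and in basophils or mast cells 19.5% and 2.91%. Human PF4 and PPBP had 0 UMIs in monocytes. Mouse haemoglobin did not follow: naïve monocytes averaged 24.6 UMIs per cell and naïve T cells 30.4. When the members with at least 3 platelet UMIs were left out, FOS differed between sham and naïve by 1.32.

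**Figure D5:**
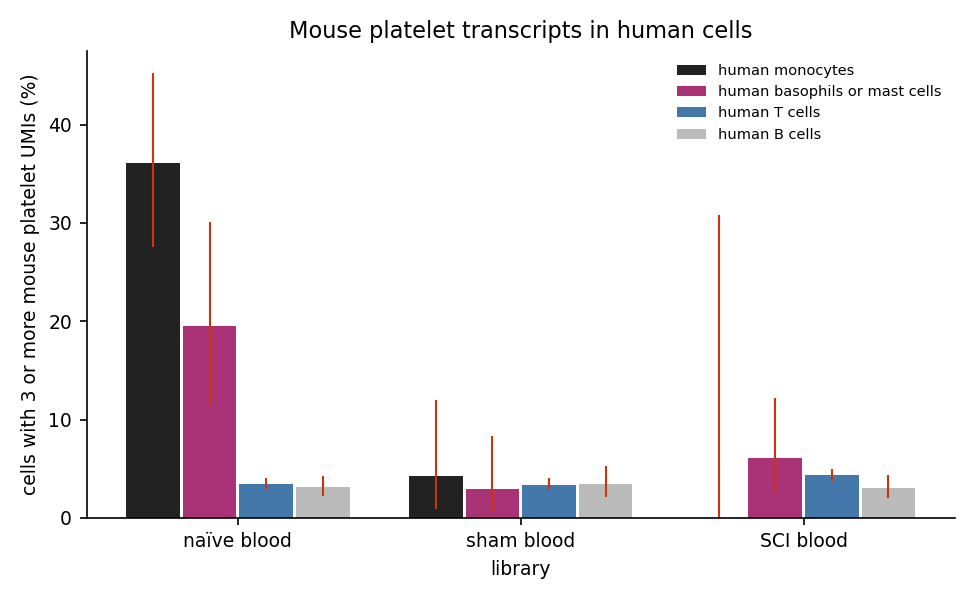
Share of human cells (vertical axis, %) with at least 3 UMIs of 9 mouse platelet genes, by library and cell type, with exact 95% binomial intervals. Naïve monocytes stand at 36.1% and naïve basophils or mast cells at 19.5%, while T and B cells lie between 3.06% and 4.33% in all 3 blood libraries; no SCI blood monocyte of 10 reached this number.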

How the data were processed

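The authors aligned droplet libraries to a combined human and mouse reference (hg38 and mm10) with Cell Ranger and deposited UMI counts per gene and barcode for each of the 4 libraries. The matrices were used as deposited. The blood libraries held 34161760 (naïve), 36007208 (sham) and 36487994 (SCI) UMIs, and the cord library 4206461. Members and gene lists were chosen with earlier results of these data known. Counts were summed over members and scaled to CPM without ribosomal protein and mitochondrial genes; 0.5 was added to each count for log2 ratios. Intervals are exact Poisson, Clopper-Pearson or conditional binomial at 95%. T cells had at least 2 CD3 UMIs, no MS4A1 and under 3 rule genes. Groups came from Leiden clustering at resolution 0.5 (scanpy 1.11.5). Scrublet marked 7 naïve members and no others; they were kept. Genes were named by a rule: the rule and marker genes; per list the 3 most abundant and the 3 with the largest differences; the 15 highest and 15 lowest sham to naïve ratios among genes with at least 100 UMIs over both libraries and 100 CPM in one; the 20 genes highest over T cells; and the 10 most abundant mouse genes. Any other gene named was chosen after its values were seen. The comparison was checked on simulated counts with counting error only. These held no spread between cells, so the check does not cover genes concentrated in single cells. edgeR 4.0.16 supplied scaling factors only. Immunoglobulin and donor-variable genes are not named. Genes whose counts may be shared with near-identical copies, such as the HLA genes, are less certain.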

Additional observations from a re-analysis of the deposited data

How the results depend on the processing

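With 1 library per group and 10 or 8 cells after SCI, depth and cell number limit every statement, and the intervals do not hold the spread between animals. No paired analysis was possible because each group is 1 library and no result comes from a test. No replicate could be left out. The shares of monocytes stayed within their intervals under every alternative: 1.74% to 1.96% in naïve, 1.23% to 1.57% in sham, 0.160% to 0.193% in SCI blood and 5.97% to 7.09% in cord. Alternatives added after seeing the data left out the top cell of each gene, the cells led by another lineage's genes, the neutrophil-like cells or the cells with mouse platelet UMIs.

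The count of genes higher in sham than naive monocytes, 19, became 29 with 1 CD3 and MS4A1 UMI allowed, 266 with no scaling, 5 with cells thinned to 1000 UMIs, 87 with at least 20 counts, 1484 with no minimum and 6 with at least 200. The count of genes lower in sham than naive monocytes, 37, became 24 without Scrublet doublets, 21 without members with FCGR3A, 20 without those with FCER1A or CD1C, 10 with no scaling, 3 when thinned, 207 with at least 20 counts, 2261 with no minimum and 3 with at least 200. Lower count minimums test more genes with few UMIs, and higher ones fewer genes. Of the gene lists between sham and naive monocytes, 14 had a median above 0, which became 30 with no scaling and 9 without the top cell of each gene. The groups among monocytes numbered 2 at resolution 0.3 and 7 at resolution 1.

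Of the 30 list medians, 26 changed sign under at least 1 alternative, 16 of them with no scaling and 12 with thinning, most of them lists whose interval already held 0. Among single genes and lists whose interval excluded 0, directions turned in 14 cases. The median log2 of alarmins of the S100 family was -0.00502 without neutrophil-like cells, and that of cell cycle genes 0.0596 with no scaling. The log2 of CLC was -5.12 with at least 4 rule genes. The log2 of IRF8 was -0.37 with at least 4 rule genes, -0.46 without cells led by another lineage's genes and -0.17 without its top cell. The log2 of SOCS3 was -0.0938 and the log2 of NASP 0.0870 when thinned. The log2 of MPO was 1.71 without cells led by another lineage's genes and 1.10 without those with platelet UMIs. With no scaling, the log2 of LYZ was 0.12, the log2 of VCAN 0.12 and the log2 of CD14 0.0224. The log2 of FCGR3A was 0.13 without members with FCGR3A UMIs, by construction. Beyond these constructions the cause was not tested. FOS stayed between 1.16 and 1.99 and CSF1R between -1.68 and -0.998.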

Other observations

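Chemokine transcripts in naïve monocytes were concentrated in 1 cell. All 61 UMIs of CXCL10 and all 30 of CXCL9, both induced by interferon gamma, lay in 1 cell of naïve blood, and sham monocytes had 1 and 0 UMIs. CXCL8, which attracts neutrophils, had 3 UMIs in naïve, 11 in sham, 3 in SCI blood and 12 in cord monocytes, and TNF had 22, 11, 2 and 2. MKI67, a marker of dividing cells, had 28 UMIs in the cord, in 12.5% of its 8 cells, and 6 and 5 UMIs in naïve and sham monocytes. IL7R, usually a lymphocyte gene, was at 417 CPM in the cord, from 69 UMIs in 37.5% of its cells, and at 15.1 and 1.80 CPM in naïve and sham monocytes.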
